A study of Mus musculus with 6 samples.

Results

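RhoGAP and RhoGEF genes were followed on Affymetrix mouse expression arrays in SVI, a mouse podocyte line that is conditionally immortalized. Podocytes are the epithelial cells whose actin-rich foot processes cover the capillaries of the kidney glomerulus. Members were the genes with an array probe set whose only symbol begins with Arhgap or Arhgef followed by a number. Together 55 of the 18193 genes tested met this rule, 33 with an Arhgap and 22 with an Arhgef symbol. One Arhgap symbol, Arhgap20os, is an opposite-strand transcript, so 32 are RhoGAP genes. The rule uses names only, not expression. All 55 were in the fit, since low values were not filtered out. Arhgef28 and Arhgef37 were not analysed here.

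The 3 stretched samples came from differentiated cells under biaxial stretch cycling at 0.5 Hz, with a linear strain of at most 5%, for 3 days. The 3 unstretched samples were the same line without stretch. Both groups had been differentiated at 38 °C in RPMI medium with 10% fetal bovine serum. The line is a cultured model, its cells share one origin, and no other line or animal was measured. The labels speak of 3 independent batches but not of what, so p-values cover the spread among these arrays only, and that spread may be technical. Values are log2 expression values, and each change is stretched minus unstretched, so 1 unit is a doubling of the signal. A gene was called when its limma p, adjusted over all 18193 genes by Benjamini and Hochberg, was under 0.05; 14.7% of all genes were called, 7.98% higher and 6.76% lower. The number of arrays limits the precision, and the median SE of a change was 0.097 over all genes. In bulk RNA, fewer cells of a type and less RNA per cell cannot be told apart.

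RhoA, Rac and Cdc42 are small GTPases of one family, molecular switches that are on when bound to GTP and off when bound to GDP. RhoGEFs (guanine nucleotide exchange factors) exchange GDP for GTP and switch them on, and RhoGAPs (GTPase-activating proteins) speed GTP hydrolysis and switch them off. RhoA drives stress fibres and contraction, while Rac and Cdc42 drive protrusions built from branched actin and filopodia. Most GAPs and GEFs favour some of these GTPases, and many are set by phosphorylation, membrane binding or release from microtubules, which RNA levels do not show. In people, variants of ARHGAP24 have been linked to focal segmental glomerulosclerosis, and loss of the GTPase inhibitor ARHGDIA causes nephrotic syndrome.

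Of the 33 Arhgap genes, 4 rose and 2 fell in stretched cells, and 27 were not called. Arhgap5, Arhgap24, Arhgap28 and Arhgap29 rose, and Arhgap18 and Arhgap39 fell. As shares, 12.1% of the family rose against 7.98% of all genes, and 6.06% fell against 6.76%. The median log2 change of the family was 0.04, against -0.02 over all genes. Changes lay above 0 in 18 members and below 0 in 15. The 3 stretched and 3 unstretched values did not overlap in 9 members, or 27.3%, against 32.6% of all genes.

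Of the 22 Arhgef genes, Arhgef1 rose, Arhgef10 and Arhgef12 fell, and 19 were not called. The share that rose was 4.55% and the share that fell 9.09%, beside the same 7.98% and 6.76% of all genes. The median log2 change was 0.01, with 12 changes above 0 and 10 below. The groups did not overlap in 6 members, or 27.3%, of which 1 was higher and 5 were lower in stretched cells; over all genes it was 32.6%, with 2906 higher and 3019 lower. Over both families 16.4% were called, close to the 14.7% of all genes, and the median absolute log2 change was 0.14 for GAPs, 0.12 for GEFs and 0.13 over all genes. These counts are small, and leaving out single arrays left 2 to 3 GAPs higher, 2 lower, 0 to 2 GEFs higher and 1 to 2 lower. The GAP higher count was 2 when stretched replicate 1 or 2, or any 1 of the 3 unstretched arrays, was left out. The GEF higher count was 0 without stretched replicate 1 or unstretched replicate 2 and 2 without unstretched replicate 1. The GEF lower count was 1 when stretched replicate 1 or 2 was left out, and also when unstretched replicate 1 or 3 was.

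**Figure D1:**
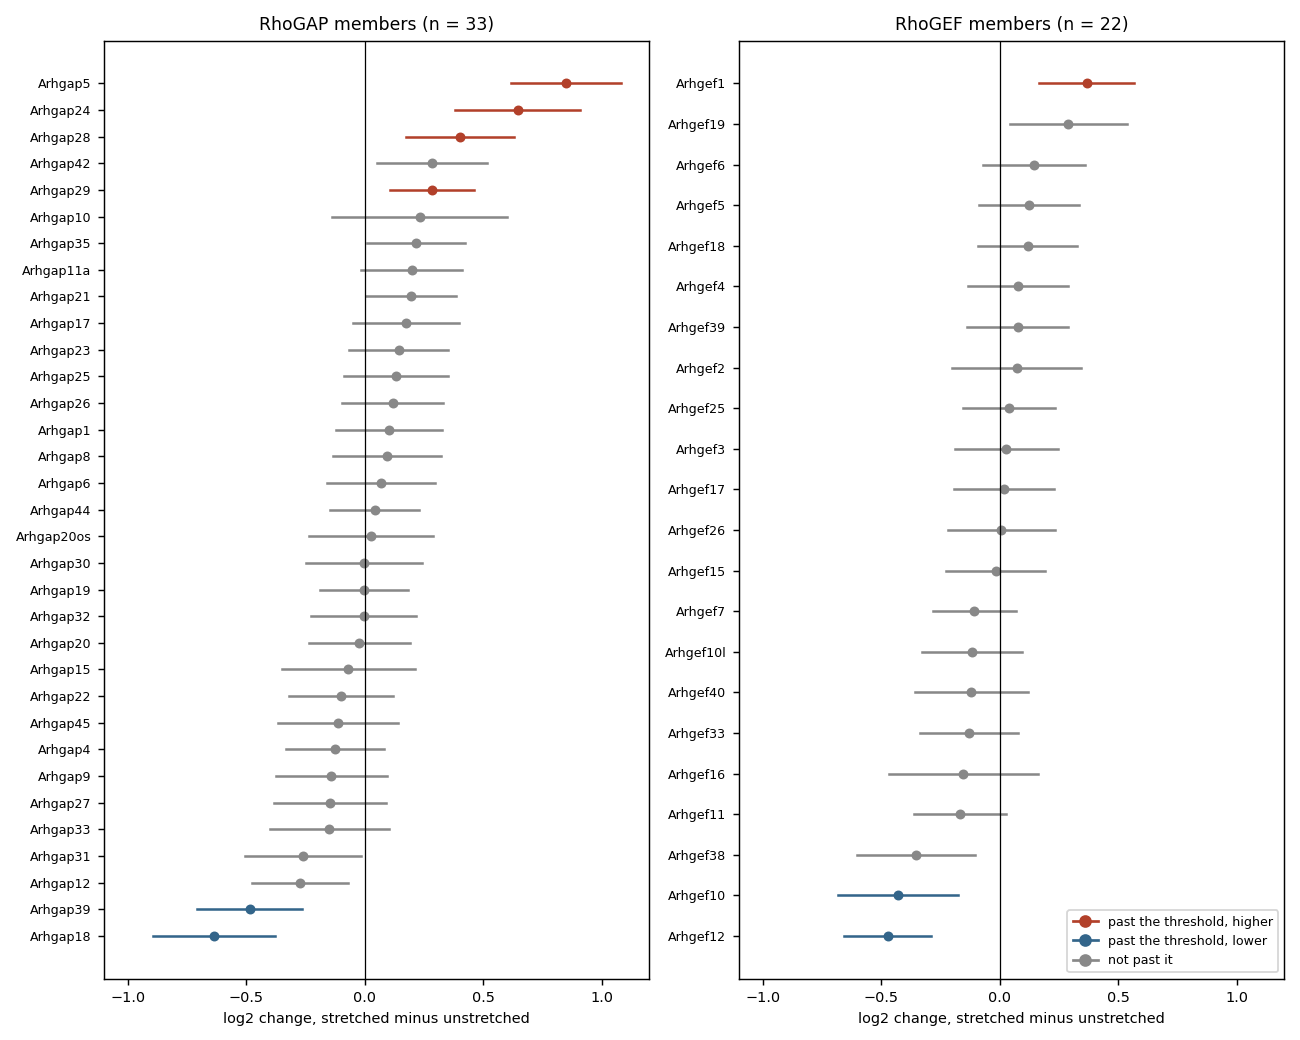
Log2 change (x axis, stretched minus unstretched) with its 95% interval for the 33 RhoGAP symbols at left and the 22 RhoGEF symbols at right, in order of size. Coloured points are the 4 GAPs and 1 GEF called higher and the 2 GAPs and 2 GEFs called lower. Most grey intervals cross 0, and Arhgap5 at 0.85 and Arhgap18 at -0.64 mark the ends.

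Promoter windows from RefSeq (GRCm38.p6), of 300 bases with 250 before the transcript start, were at hand for 41 of the 55 members, which had 67 windows. CArG boxes (binding sites of SRF, the factor that follows actin and RhoA activity) were searched on both strands as CC, then 6 bases of A or T, then GG. A match was held by 0 of 67 windows, against 1.63% of all 32841 windows. The TEAD motif GGAATG, searched on both strands, was found in 7 of 67 windows, or 10.4%, against 14.7% of all windows. Among called members 6 had windows, 9 in all, and only the Arhgap18 window held the TEAD letters, 24 bases after the start. A match is a description and not a site, and no match says only that these letters are not in the window. The 4 upstream stretches printed here belong to called members with a window, the rise and the fall with the largest statistic in each family. Of these, Arhgap5, Arhgap18 and Arhgef12 stayed called in all alternatives. Arhgef1 did not, and its direction was opposite to that of its relative Arhgef12. They are printed 5′ to 3′ on the gene's strand with CpG pairs in capitals.
Arhgap5, chr12:52515827-52516076, plus strand, transcript start inside the RefSeq span of the gene: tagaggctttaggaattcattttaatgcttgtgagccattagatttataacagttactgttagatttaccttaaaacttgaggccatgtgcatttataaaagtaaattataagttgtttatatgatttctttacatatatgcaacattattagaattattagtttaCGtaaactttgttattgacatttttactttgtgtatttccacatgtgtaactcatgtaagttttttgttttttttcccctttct
Arhgap18, chr10:26772262-26772511, plus strand: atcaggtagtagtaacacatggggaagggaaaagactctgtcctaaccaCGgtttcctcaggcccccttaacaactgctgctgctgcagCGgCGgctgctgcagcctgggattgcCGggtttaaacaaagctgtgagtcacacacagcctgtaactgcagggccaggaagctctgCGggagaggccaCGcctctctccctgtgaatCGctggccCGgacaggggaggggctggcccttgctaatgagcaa
Arhgef1, chr7:24902736-24902985, plus strand, 1 of its 2 windows: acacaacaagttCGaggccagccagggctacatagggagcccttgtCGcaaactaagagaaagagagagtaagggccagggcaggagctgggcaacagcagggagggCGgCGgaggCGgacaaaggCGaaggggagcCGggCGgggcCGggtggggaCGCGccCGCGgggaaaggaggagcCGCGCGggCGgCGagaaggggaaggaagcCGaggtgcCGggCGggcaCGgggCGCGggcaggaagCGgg
Arhgef12, chr9:43105719-43105968, minus strand: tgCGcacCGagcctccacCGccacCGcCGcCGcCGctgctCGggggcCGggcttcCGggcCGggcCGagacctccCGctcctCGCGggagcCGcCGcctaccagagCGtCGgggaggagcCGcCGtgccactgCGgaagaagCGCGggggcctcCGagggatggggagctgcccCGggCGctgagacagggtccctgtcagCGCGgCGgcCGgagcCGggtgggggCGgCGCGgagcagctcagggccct

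The 4 stretches differ in base composition. GC made up 26.4% of the Arhgap5 stretch, with 1 CpG, and 58.8% of the Arhgap18 stretch, with 8. It made up 70.8% in Arhgef1, with 25 CpGs, and 79.6% in Arhgef12, with 35. The median was 56.8% and 8 CpGs over the members' windows, against 52.4% and 6 over all windows.

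RNA quality and markers of other cell types were read on the same arrays. The beta-actin control's 3' minus 5' log2 difference, a sign of RNA quality, was 1.30 ± 0.05 in stretched and 1.57 ± 0.03 in unstretched cells (SD, n = 3 each; exact permutation p = 0.1, the smallest possible). For the Gapdh control the same difference was 0.16 ± 0.10 in stretched and 0.25 ± 0.07 in unstretched cells, and the groups overlapped (exact permutation p = 0.4). Array medians were 4.92 to 4.96 in stretched and 4.96 to 4.98 in unstretched cells. Podocyte markers Wt1 and Synpo were measured at 6.85 and 7.98 in stretched and 6.60 and 8.42 in unstretched cells, while Nphs1, the slit diaphragm gene nephrin that defines mature podocytes, was low, at 4.91 in stretched and 5.01 in unstretched cells. Of 12 podocyte markers measured, Clic5 and Synpo fell and 5 lay below the level of the median gene, 5.74; 9 of the 12 changes were below 0, and the median log2 change was -0.12. The log2 summed level of the 12 was nonetheless 12.77 to 12.79 in stretched and 12.62 to 12.74 in unstretched cells. Actn4, which many cell types express, had the highest level among them, 12.02 in stretched and 11.83 in unstretched cells, and Cd2ap had 10.53 in stretched and 10.27 in unstretched cells; neither was called. The log2 summed level of 5 leukocyte markers ran from 8.69 to 8.87 in stretched and from 9.13 to 9.36 in unstretched cells. Cd68 and Csf1r fell, and Csf1r was the brightest of them, at 8.38 in stretched and 8.88 in unstretched cells. Ptprc, the pan-leukocyte marker, was at 4.06 in stretched and 4.34 in unstretched cells. Cd3e changed by -0.04 and Itgam by -0.03, and neither was called. For 5 mesangial and pericyte markers the sum was 9.22 to 9.34 in stretched and 8.92 to 8.96 in unstretched cells. Pdgfrb, the brightest of them at 8.82 in stretched and 8.42 in unstretched cells, rose. The others were not called: Gata3 changed by 0.35, Des by 0.02, Itga8 by -0.16 and Rgs5 by -0.11. Endothelial and tubule sums overlapped, although Cubn of the 6 tubule markers rose. The part these measures play in the changes of the members was not tested.

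The p190 RhoGAPs, Arhgap5 (p190B) and Arhgap35 (p190A), are large RhoA-directed GAPs that act at sites of adhesion. Arhgap5 had 9.92, 9.75 and 10.11 in stretched cells, against 9.16, 9.00 and 9.09 in unstretched cells. All stretched values lay above all unstretched ones. Its log2 change was 0.85 (SE 0.10; 95% CI 0.62 to 1.08; adjusted p = 0.000481 in limma), a level 1.8-fold higher, and this was the largest absolute change of any member. It was read by 4 probe sets, and in a fit over all 45037 probe sets, of which 11.0% were called, 3 of the 4 were called higher. The other 2 called had changes of 0.97 (SE 0.12, limma adjusted p = 0.00111) and 1.05 (SE 0.15, adjusted p = 0.0017), while the fourth, dim at 4.81, had -0.03. Arhgap5 stayed called in all 14 alternatives, and it is the gene whose printed upstream stretch is poorest in CpG.

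Arhgap35 had 8.59, 8.52 and 8.65 in stretched and 8.40, 8.23 and 8.49 in unstretched cells. The groups did not overlap, but the change of 0.22 (SE 0.09) missed the threshold (limma adjusted p = 0.158). The change of Arhgap5 exceeded that of Arhgap35 by 0.63, and the within-array differences did not overlap between groups (exact permutation p = 0.1, the smallest possible; 0.117 adjusted over 14 comparisons chosen after the values were seen).

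Arhgap24 (FilGAP) is a Rac-directed GAP that binds filamin A, and it belongs to a small group with Arhgap22 and Arhgap25. Its brighter probe set read 9.93, 9.84 and 9.92 in stretched and 8.97, 9.32 and 9.47 in unstretched cells. The stretched arrays lay close together above a wider unstretched group. The log2 change was 0.64 (SE 0.12; 95% CI 0.38 to 0.91; adjusted p = 0.00489 in limma), a level 1.56-fold higher. A second, dim probe set at 5.37 changed by 0.03 (adjusted p = 0.873), and taking only probe sets without a suffix made this the gene's value and ended the call. Arhgap22, at -0.10 (limma adjusted p = 0.565), and Arhgap25, at 0.13 (adjusted p = 0.441), were not called. The change of Arhgap24 exceeded that of Arhgap22 by 0.75 and that of Arhgap25 by 0.51, each with no overlap between groups (exact permutation p = 0.1; 0.117 adjusted over the 14). Arhgap22 and Arhgap25 both lay below the level of the median gene, where RMA compresses changes and values can be background, and the part this plays in the differences was not tested.

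Arhgap18, Arhgap28 and Arhgap29 are GAPs that act on RhoA, and Arhgap18 and Arhgap28 are close relatives. Arhgap18 had 7.66, 7.54 and 7.36 in stretched cells, against 8.24, 8.30 and 7.93 in unstretched cells. All stretched values lay below all unstretched ones. It fell by 0.64 on the log2 scale (SE 0.12; 95% CI -0.89 to -0.38; adjusted p = 0.00457 in limma), a level 1.56-fold lower. Its second probe set also fell, with -0.76 (SE 0.13, adjusted p = 0.00403), and the call held in all 14 alternatives.

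Arhgap28 had 7.08, 6.87 and 6.69 in stretched and 6.51, 6.45 and 6.47 in unstretched cells. The stretched values were all higher but more spread. Its change was 0.40 (SE 0.10; 95% CI 0.17 to 0.63; adjusted p = 0.0246 in limma), a level 1.32-fold higher. The 2 other probe sets changed by 0.19 and 0.26 without a call (adjusted p = 0.347 and 0.264). The call was lost without stretched replicate 1 (adjusted p = 0.102) or 2 (0.0677), or without unstretched replicate 1 (0.0503), 2 (0.0698) or 3 (0.0502), and with the mean of all probe sets (0.069). Arhgap28 and Arhgap18 moved in opposite directions, with changes 1.04 apart and no overlap (exact permutation p = 0.1; 0.117 adjusted over the 14).

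Arhgap29 had 10.55, 10.60 and 10.50 in stretched and 10.28, 10.30 and 10.22 in unstretched cells. Both groups were tight and lay apart. The change was 0.28 (SE 0.08; 95% CI 0.11 to 0.46; adjusted p = 0.0379 in limma), a level 1.22-fold higher. In the fit over all probe sets the same probe set was at adjusted p = 0.0542, and a dim one, at 3.79, was called with 0.58 (SE 0.16, adjusted p = 0.0424). Arhgap29 lost its call when any 1 of the 6 arrays was left out (adjusted p from 0.066 to 0.131) and after renewed quantile normalization (0.139).

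Arhgap39 (Vilse), the vertebrate relative of a fly GAP of the Robo pathway, had 5.89, 5.83 and 5.77 in stretched and 6.15, 6.31 and 6.48 in unstretched cells. All stretched values were lower. The log2 change was -0.49 (SE 0.10; 95% CI -0.71 to -0.27; adjusted p = 0.0085 in limma), a level 1.4-fold lower. It was read by a probe set whose suffix marks probes that can bind other sequences. The 2 other probe sets had 0.17 (adjusted p = 0.475) and 0.05 (adjusted p = 0.825), and the call was lost with the mean of all probe sets, at -0.09 (adjusted p = 0.437). With probe sets without a suffix the value was 0.17 (adjusted p = 0.448).

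The other Arhgap genes included GAPs with membrane-bending domains (Arhgap10, Arhgap26 and Arhgap42, the GRAF group; Arhgap17 and Arhgap44, the RICH group), the CdGAP group (Arhgap30 to Arhgap33) and the mitosis-linked Arhgap11a and Arhgap19. Of those not called, 5 are named by size or by another probe set, and the other 22 had changes of -0.15 to 0.23 (limma adjusted p from 0.172 to 0.992). Arhgap12, a multi-domain GAP of cell junctions, had 8.32, 8.22 and 8.41 in stretched and 8.70, 8.50 and 8.56 in unstretched cells. Its groups did not overlap, but the change of -0.27 (SE 0.09) had adjusted p = 0.0751, and a second bright probe set had 0.12 (adjusted p = 0.531). Arhgap12 was called after renewed quantile normalization (adjusted p = 0.0204) and without dim genes (0.0456). The GRAF member Arhgap42 had 7.50, 7.39 and 7.19 in stretched and 7.04, 7.22 and 6.97 in unstretched cells, with a change of 0.28 (SE 0.11, adjusted p = 0.103). Arhgap31 (CdGAP), directed at Rac and Cdc42, changed by -0.26 (SE 0.11, adjusted p = 0.152). Arhgap21, 1 of the 22, also had groups that did not overlap, with a change of 0.19 (adjusted p = 0.172).

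Arhgap17 (RICH1), a GAP for Cdc42 and Rac at epithelial junctions, changed by 0.17 (SE 0.10, limma adjusted p = 0.301) on its brightest probe set. Another of its probe sets had 5.88, 5.78 and 5.99 in stretched and 6.52, 6.47 and 6.53 in unstretched cells. That probe set fell by 0.62 (SE 0.09, adjusted p = 0.00205 over all probe sets). The changes of the 2 probe sets differed by 0.79 (exact permutation p = 0.1; 0.117 adjusted over the 14).

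**Figure D2:**
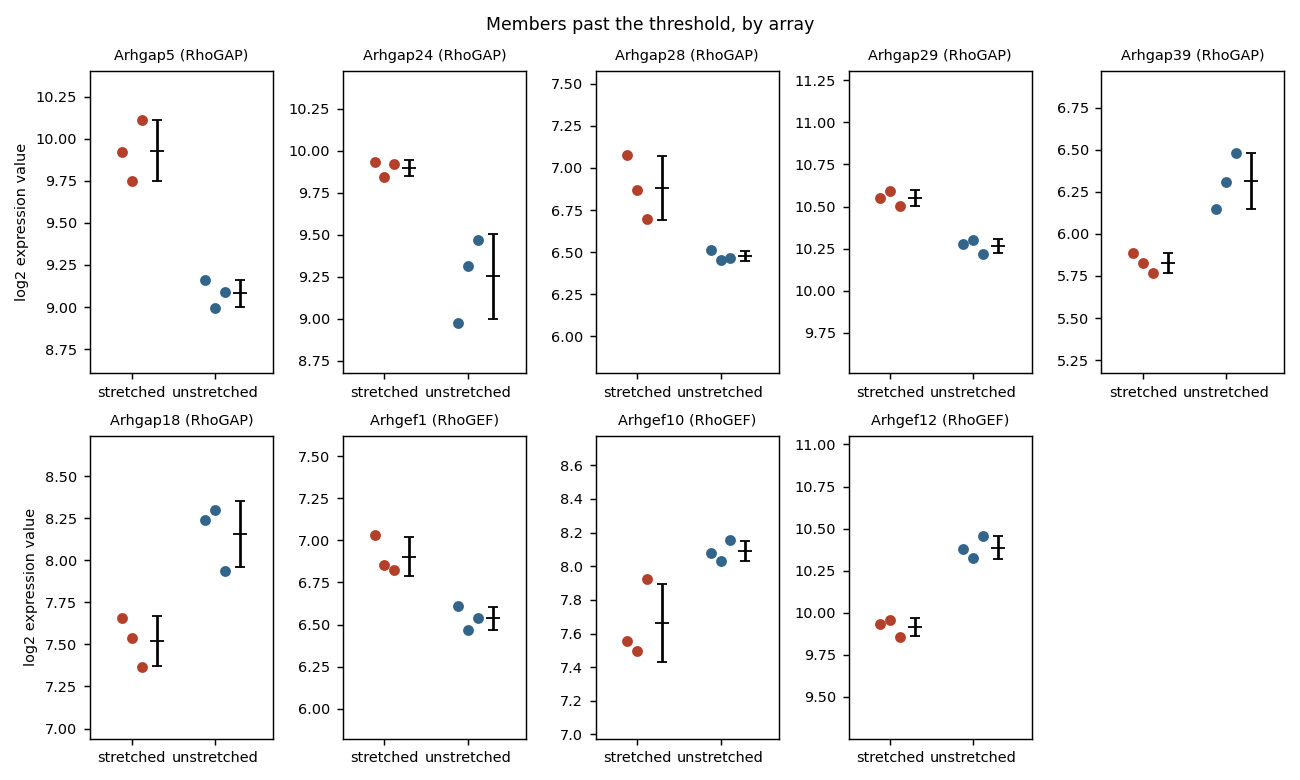
Log2 expression value (y axis, each panel spanning 1.8 units) of the 9 called members on each array, stretched at left and unstretched at right, with group mean ± SD in black (n = 3 each). In each panel the 2 groups do not overlap, and the gap is widest for Arhgap5.

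Among the GEFs, Arhgef1, Arhgef11 and Arhgef12 carry an RGS domain and link G-protein-coupled receptors to RhoA through the G12 family of G proteins. In this group 1 gene rose, 1 fell and 1 was not called. Arhgef12 (LARG), which is recruited to integrins under tension in cultured cells, had 9.93, 9.96 and 9.85 in stretched and 10.38, 10.33 and 10.46 in unstretched cells. The groups were tight and separate. Arhgef12 fell by 0.47 (SE 0.08; 95% CI -0.66 to -0.29; adjusted p = 0.0037 in limma), a level 1.39-fold lower, and its call held in all 14 alternatives. A second bright probe set had 9.90, 9.91 and 9.83 in stretched and 9.98, 9.99 and 9.92 in unstretched cells. Its change was -0.09 (SE 0.08, adjusted p = 0.575), smaller by 0.39 (exact permutation p = 0.1; 0.117 adjusted over the 14). With the mean of all its probe sets, Arhgef12 changed by -0.26 (adjusted p = 0.0457).

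Arhgef1 (p115-RhoGEF, named Lsc in mice) had 7.03, 6.85 and 6.83 in stretched and 6.61, 6.47 and 6.54 in unstretched cells. The lowest stretched value lay above the highest unstretched one. The change was 0.37 (SE 0.09; 95% CI 0.17 to 0.57; adjusted p = 0.0207 in limma), a level 1.29-fold higher. Its other probe set had 0.12 (adjusted p = 0.603). The call was lost without stretched replicate 1 (adjusted p = 0.0954) or unstretched replicate 2 (0.0683), with the mean of probe sets (0.077) and with probe sets without a suffix (change 0.12, adjusted p = 0.58). Arhgef11 (PDZ-RhoGEF) had 7.77, 7.61 and 7.55 in stretched and 7.81, 7.80 and 7.83 in unstretched cells, with no overlap but no call (change -0.17, SE 0.09, adjusted p = 0.247). The change of Arhgef1 exceeded that of Arhgef12 by 0.84 and that of Arhgef11 by 0.53, and that of Arhgef12 differed from that of Arhgef11 by -0.31. None of the 3 differences overlapped between groups (exact permutation p = 0.1; 0.117 adjusted over the 14).

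Arhgef10, a RhoA-directed GEF, had 7.56, 7.50 and 7.93 in stretched and 8.08, 8.03 and 8.15 in unstretched cells. Stretched replicate 3 lay nearest the unstretched values. Arhgef10 fell by 0.43 (SE 0.11; 95% CI -0.68 to -0.18; adjusted p = 0.0294 in limma), a level 1.35-fold lower. The 2 other probe sets changed by -0.30 (adjusted p = 0.103) and -0.19 (adjusted p = 0.202). The call was lost without stretched replicate 1 or 2 (0.115 each) or without unstretched replicate 1 (0.0678), 2 (0.0573) or 3 (0.0694). Its relative Arhgef10l changed by -0.12 (adjusted p = 0.474), and the difference of -0.31 between the 2 changes overlapped between groups (exact permutation p = 0.2).

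Arhgef2 (GEF-H1), a RhoA GEF that is held inactive on microtubules, had 8.24, 8.24 and 8.08 in stretched and 8.25, 8.28 and 7.82 in unstretched cells. These values overlapped, and the change was 0.07 (SE 0.12, limma adjusted p = 0.77). Another Arhgef2 probe set had 6.52, 6.51 and 6.61 in stretched and 6.24, 5.76 and 6.16 in unstretched cells and was called higher, with 0.49 (SE 0.12, adjusted p = 0.0306 over all probe sets). The changes of the 2 probe sets differed by -0.42 (exact permutation p = 0.3).

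The largest statistics among GEFs without a call were those of Arhgef38, Arhgef19, Arhgef11 and Arhgef6. Arhgef38 was dim, with 4.28, 4.43 and 4.54 in stretched and 4.99, 4.61 and 4.72 in unstretched cells, and its change of -0.35 (SE 0.11) had limma adjusted p = 0.0599. It was called without unstretched replicate 2 (0.0461) and with an intensity trend and a robust prior together (0.0465). Arhgef19, an ephexin-group GEF, changed by 0.29 (SE 0.11, adjusted p = 0.12), and it was called without unstretched replicate 1 (0.0403). Arhgef6 (alpha-PIX), a GEF for Rac and Cdc42, changed by 0.14 (SE 0.10, adjusted p = 0.379), while its other probe set had -0.31 (adjusted p = 0.0649). Its relative Arhgef7 (beta-PIX) had groups without overlap but a change of only -0.11 (adjusted p = 0.427). The remaining 14 GEFs, Arhgef7 and Arhgef10l included, lay between -0.15 and 0.12 (adjusted p from 0.421 to 0.976).

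Calls were made only among brighter members. Of the 22 members below the level of the median gene, 0 were called by limma; 9 of the 33 brighter ones were. Over all genes the same split was 427 of 9096 dimmer and 2254 of 9097 brighter genes. With the normalization method, RMA, changes come out smaller where the signal is low. The part this plays in the split, among members or among all genes, was not tested. The 6 Arhgap genes known mainly from blood cells (Arhgap4, Arhgap9, Arhgap15, Arhgap25, Arhgap30 and Arhgap45, grouped after the values were seen) were all dim. By limma 0 of the 6 were called, against 427 of the 9096 dimmer genes. An unadjusted p under 0.05 was reached by 0 of the 6 and by 5057 of all 18193 genes, bright and dim together. How many of the dimmer genes reached it was not analysed here. Changes of the probe sets that stood for the 6 blood-cell genes ran from -0.14 to 0.13. Their other probe sets, also without a call, ran from -0.26 (Arhgap4) to 0.25 (Arhgap9).

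Of the 55 members, 38 had more than 1 probe set. Of the 73 probe sets that did not stand for their gene, 4 were called higher and 2 lower, and 43 had the same sign as the one that did. Among all 45037 probe sets 6.47% were called higher and 4.51% lower. The 6 called lie in Arhgap5 (2), Arhgap29, Arhgef2, Arhgap17 and Arhgap18. Probe sets of one gene can read different transcript ends or forms, and which forms these probe sets read was not analysed here.

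**Figure D3:**
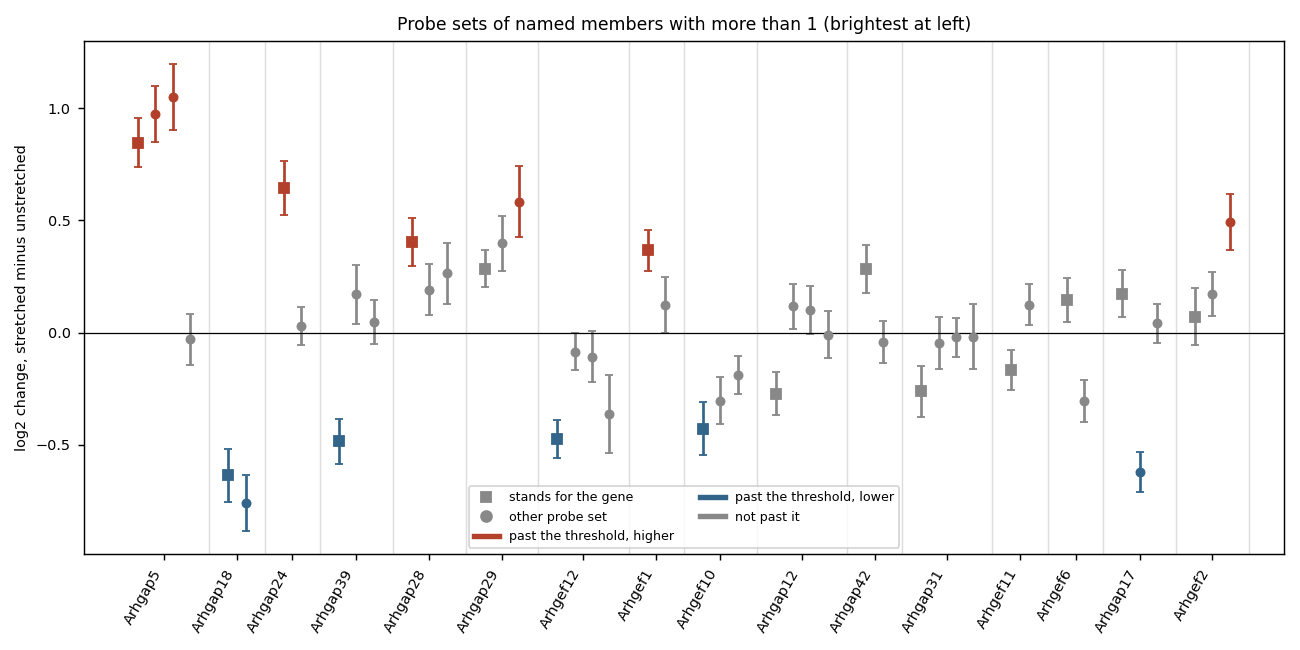
Log2 change with SE (y axis) of each probe set of the named members that have more than 1, brightest at left, in the fit over all probe sets. Squares stand for the gene. Arhgap5 has 3 probe sets called higher and a dim one at -0.03, and Arhgap18 has both called lower. Probe sets of Arhgap12, Arhgap17, Arhgap39, Arhgap42, Arhgef6 and Arhgef11 also lie on both sides of 0.

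Other genes of this GTPase cycle were taken from lists chosen with earlier results of these data known. Of 23 measured RhoGAP genes with other names, 5 rose and 3 fell, 21.7% and 13.0%, against 7.98% and 6.76% of all genes, and their median log2 change was 0.07. Depdc1a, a mitotic protein with a RhoGAP-like domain, had 7.40 ± 0.10 in stretched and 6.57 ± 0.05 in unstretched cells (SD, n = 3 each) and rose by 0.83 (SE 0.09, limma adjusted p = 0.000205). Chn2 (beta-chimaerin), a Rac-directed GAP, had 4.76 ± 0.13 in stretched and 5.91 ± 0.31 in unstretched cells and fell by 1.14 (SE 0.14, adjusted p = 0.000481). Myo9a, a myosin with a GAP domain for RhoA, fell by 0.67 (SE 0.13, adjusted p = 0.00706). Dlc1, a RhoA-directed GAP of focal adhesions, rose by 0.94 (SE 0.17, adjusted p = 0.00496). The remaining calls were Stard13, a relative of Dlc1, at 0.52 (adjusted p = 0.0156), Fam13b at 0.38 (0.0186), Bcr at 0.30 (0.0335) and Srgap1 at -0.62 (0.0171), named after their values were seen. Without stretched replicate 1 the count that rose was 2, without stretched replicate 2 it was 3, and without unstretched replicate 2 it was 2. Stard13 lost its call without stretched replicate 1 (adjusted p = 0.0703) or unstretched replicate 2 (0.0598), and Srgap1 without unstretched replicate 2 (0.0671). Fam13b lost it when stretched replicate 1 or 2 was left out, or unstretched replicate 1 or 2 (0.0513 to 0.0874), and with both other choices of probe set. Bcr lost it when any array but unstretched replicate 1 was left out (0.0703 to 0.106) and under 3 other alternatives (0.0591 to 0.726).

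Of 45 measured RhoGEF genes with other names, 3 rose and 1 fell (6.67% and 2.22%), with a median log2 change of 0.00. Ect2, the RhoA GEF of cytokinesis, had 9.95 ± 0.15 in stretched and 8.90 ± 0.06 in unstretched cells (SD, n = 3 each) and rose by 1.05 (SE 0.10, limma adjusted p = 9.17e-05). Plekhg5 fell by 0.54 (SE 0.08, adjusted p = 0.00194). Fgd3, a Cdc42 GEF, rose by 0.65 (SE 0.15, adjusted p = 0.0139), a call lost without stretched replicate 1 (0.0586) or with the mean of probe sets (0.127). Vav2, a GEF for Rac and RhoA switched on by tyrosine phosphorylation, rose by 0.34 (SE 0.10, adjusted p = 0.0374), a call that was lost when any array but unstretched replicate 2 was left out (0.0592 to 0.138), after renewed quantile normalization (0.0608), with the mean of probe sets (0.0952) and with the intensity trend and robust prior (0.0615). Without stretched replicate 1 the count that rose was 1, and without unstretched replicate 3 the count that fell was 2.

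Of 20 measured GTPases of the RhoA, Rac and Cdc42 family, the proteins on which GAPs and GEFs act, 5 rose and 1 fell (25.0% and 5.0%), with a median log2 change of 0.14. Rhou, a Cdc42-like GTPase, rose by 0.56 (SE 0.10, limma adjusted p = 0.00452), Rhoc by 0.55 (SE 0.10, adjusted p = 0.00556) and Rhob by 0.57 (SE 0.12, adjusted p = 0.00869). Rac1 rose by 0.35 (SE 0.08, adjusted p = 0.0137), but the call was lost without stretched replicate 1 (0.0511) or 2 (0.0577) and with the mean of its probe sets (change 0.04, adjusted p = 0.767). Rhobtb3 was at 0.29 (adjusted p = 0.0373) and Rhobtb2 at -0.42 (adjusted p = 0.0262), named after their values were seen. Leaving out any 1 of the 6 arrays ended the call of Rhobtb3 (0.0521 to 0.127), as did renewed quantile normalization (0.125), and with probe sets without a suffix its change was -0.026. Leaving out stretched replicate 1 or 3, or unstretched replicate 1 or 3, ended the call of Rhobtb2 (0.0566 to 0.105). Rhoa, at 0.20 (adjusted p = 0.172), and Cdc42, at 0.24 (adjusted p = 0.0885), were not called. The count that rose was 3 without stretched replicate 1 or 2. The count that fell was 0 when stretched replicate 1 or 3 was left out, and also when unstretched replicate 1 or 3 was.

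Of 36 measured effectors, the proteins that these GTPases bind when active, 11 rose and 3 fell (30.6% and 8.33%), with a median log2 change of 0.08. Cdc42ep2 had 7.46 ± 0.03 in stretched and 6.53 ± 0.18 in unstretched cells (SD, n = 3 each) and rose by 0.93 (SE 0.10, limma adjusted p = 0.000239). Cdc42ep1, another of these Cdc42-binding proteins, rose by 0.62 (SE 0.09, adjusted p = 0.00104). The formin Daam1 rose by 0.75 (SE 0.10, adjusted p = 0.000642), but with the mean of its probe sets it changed by 0.22 (adjusted p = 0.132). Wasf1 (WAVE1), the actin nucleation regulator downstream of Rac, rose by 1.18 (SE 0.18, adjusted p = 0.00149). Those that fell were Baiap2 at -0.43 (adjusted p = 0.005), Fmnl2 at -0.42 (0.0106) and Diaph2 at -0.52 (0.0112), named after their values were seen. Baiap2 lost its call with the mean of its probe sets (change -0.19, adjusted p = 0.142) and with those without a suffix (change -0.14, adjusted p = 0.512), and Diaph2 without stretched replicate 3 (0.0522). The count that rose was 6 without stretched replicate 1, 7 without stretched replicate 3 and 7 without unstretched replicate 2, and 7 after renewed quantile normalization. Of the RhoGDI genes, inhibitors that hold these GTPases in the cytosol, 1 of 3 was analysed here, and Arhgdib changed by -0.10 (adjusted p = 0.675).

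**Figure D4:**
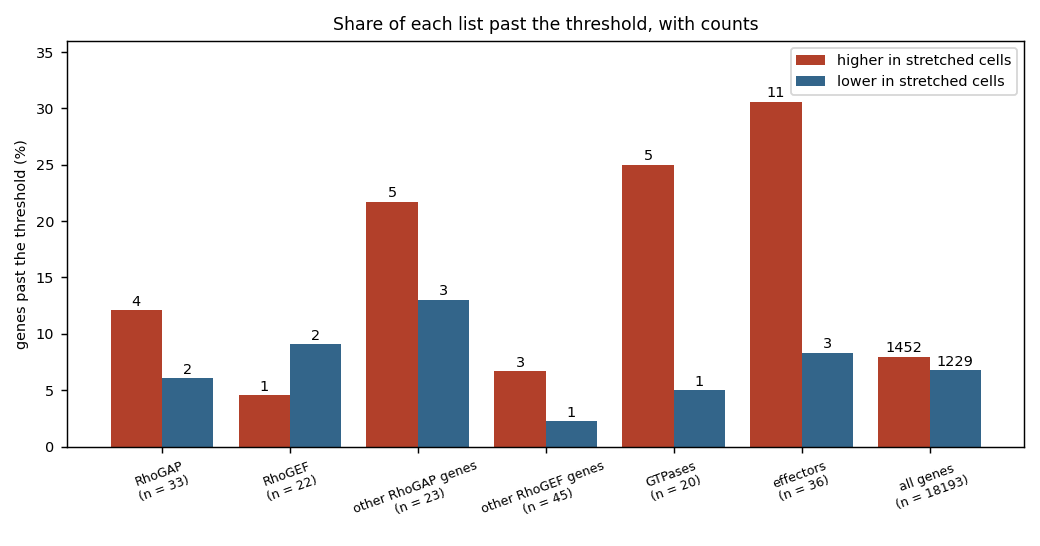
Share of genes past the threshold (y axis, percent) in the 2 families, 4 lists of other genes of the GTPase cycle and all genes, higher in stretched cells at left of each pair and lower at right, with counts above the bars. The RhoGAP and RhoGEF bars of 4.55% to 12.1% stand near those of all genes at 7.98% and 6.76%, and the effectors have the tallest bar, at 30.6%.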

How the data were processed

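The deposited table holds a log2 expression value for each probe set on each array, which the authors made with RMA, per the submitters' processing notes. For its version and for a genome build, nothing is given in the sources used here. By default RMA corrects background, quantile normalizes and summarises probes. Array medians lay between 4.92 and 4.98. Array means were nearly equal, 5.7010 to 5.7011 in stretched and 5.7011 to 5.7012 in unstretched samples. The SD of an array was 2.08 to 2.10 in stretched and 2.03 to 2.06 in unstretched samples. Whether the values were scaled to a common mean after RMA was not tested. Detection calls were not used, so low values can be background. Of 45101 probe sets, 64 controls were left out, 34945 had 1 symbol in the platform annotation, 932 had several and 9160 were not listed there. The symbols of all 55 members matched RefSeq gene IDs.

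The probe set with the highest mean over the 6 arrays stood for its gene. Stretched minus unstretched was fitted over 18193 genes with limma 3.58.1 (lmFit, eBayes; R 4.3.3) with no covariate, and p was adjusted over all of them (Benjamini-Hochberg, threshold 0.05). Other probe sets were tested in a fit over all 45037. Single values used two-sided exact permutation tests. Groups and replicate numbers came from sample titles. Members and lists were chosen with earlier results of these data known. Named were all called members, the 4 GAPs and 4 GEFs with the largest statistics among the rest, members with another called probe set, and the 4 strongest called genes of each list (all where 5 or fewer were called); others are marked as named later, and Arhgap21, Arhgap22, Arhgap25, Arhgef7, Arhgef10l, Rhoa and Cdc42 were also named after their values were seen. Alternatives were the replicate block, left-out arrays, scaling, a filter on dim genes, probe set choice and the prior. The steps were tested on simulated data with 200 changed genes. Log2 changes of 0.5 were called in the right direction for 42% of genes and changes of 1 for 96%. In the data 2681 genes were called, and the adjusted threshold is less strict when more genes change. The simulated shares therefore need not hold for the data, although smaller changes can still be missed.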

Additional observations from a re-analysis of the deposited data

How the results depend on the processing

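The 14 alternatives changed 1 choice at a time, except that the intensity trend and the robust prior were switched on together; those for all genes by direction, for the lists and for genes outside the families were added after seeing the data. Over all genes, 2681 were called, 1661 to 2639 with 1 array left out; the lowest counts were 1661 without stretched replicate 1 and 1750 without stretched replicate 3. Leaving out 1 array gave 2 to 3 GAPs higher, 2 lower, 0 to 2 GEFs higher and 1 to 2 lower, and median log2 changes of 0.00087 to 0.10 for GAPs and -0.034 to 0.037 for GEFs. With the mean of all probe sets 1 GAP was lower and 0 GEFs were higher (limma; 3 at an unadjusted p under 0.05), and with probe sets without a suffix 0 GEFs were higher (2 at an unadjusted p under 0.05). Without dim genes the medians were 0.17 for GAPs and -0.11 for GEFs, since only brighter members were then counted. The sign reversed for Arhgap39 (0.17), Arhgap17 (-0.62), Arhgap21 (-0.014), Arhgef7 (0.011), Rac1 (-0.029) and Rhobtb3 (-0.026) with probe sets without a suffix, where another probe set stands for the gene. It reversed for Arhgef6 (-0.081) and Arhgap17 (-0.14) with the mean of probe sets, and for Arhgef2 without unstretched replicate 3 (-0.079) and after renewed quantile normalization (-0.012); the cause was not tested for Arhgef2. Of all calls, 54.2% were higher, 61.8% after centring arrays on their medians and 42.6% after renewed quantile normalization. With the replicate block, 3102 genes were called, and 4 GAPs higher, 2 lower, 1 GEF higher and 2 lower, as without it; with a random block Arhgap12 (limma adjusted p = 0.0477) and Arhgef38 (0.0429) were called too. Same-numbered arrays had deviations correlated at 0.018, 0.15 and 0.28, and arrays with different numbers at -0.24 to 0.11. These few values cannot settle whether the numbers pair the samples, and the main fit did not pair them. No depth is counted on arrays, and signal over background is unknown, so dim values can be background.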
